A study of Mus musculus with 7 samples.

Results

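The genes described here were 9 transcription factor genes that set and maintain hepatocyte identity: Hnf4a, Foxa1, Foxa2, Foxa3, Cebpa, Cebpb, Onecut1, Prox1 and Hhex. They were found by symbol in a RefSeq gene table, and all 9 had a position and a strand, among 21536 protein-coding genes used. The data were peaks of chromatin immunoprecipitation followed by sequencing (ChIP-seq), which lists the genomic sites where a protein was recovered with the DNA. Livers came from male C57BL/6 mice aged 3 months fed either the control diet or the one containing retinoic acid (RA). The labels give a diet of 1 day and the study's methods a longer treatment, and which one applies is unclear. The antibodies recognised retinoic acid receptor α (RARα), RARβ or retinoid X receptor α (RXRα) and gave 6 libraries, 1 per receptor and diet, with no replicate, and 6 peak lists. A peak was counted for a gene when its midpoint lay in the gene span or within 50 kb of it, and 410 of the 245004 peaks did so. The purpose of the comparison was to see where the receptors bind around these genes and how that differs between diets.

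HNF4α is a nuclear receptor that activates a large share of hepatocyte genes. FOXA1, FOXA2 and FOXA3 are forkhead factors that can open compacted chromatin, C/EBPα and C/EBPβ are leucine zipper factors of metabolic and acute phase genes, and ONECUT1 (HNF6), PROX1 and HHEX are homeodomain factors that act from the formation of the liver bud onward. RARs bind DNA as heterodimers with RXRs, typically at repeats of the half-site AGGTCA or close variants of it. RXRs are also the partners of other liver nuclear receptors, so an RXRα peak need not hold a RAR.

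All 9 genes had a peak of RARα and of RXRα under both diets, and all 9 had a RARβ peak under RA. The exception among the 54 pairs of gene and list was Foxa1, which had 0 RARβ peaks under the control diet. A peak near a gene is common in these lists, so the presence of one says little. Under the control diet, 83.7% of all protein-coding genes had a RARα peak in the same window, 70.2% a RARβ peak and 83.7% an RXRα peak. Under RA the shares were 84.8%, 77.8% and 84.3%. The number of peaks stood further from the other genes than their presence did. The median gene of the 9 had 6 RARα, 2 RARβ and 13 RXRα peaks under the control diet, against medians of 4, 1 and 5 over all genes. Under RA the medians were 8, 6 and 12, against 4, 3 and 5. These are values of single libraries, and no test was possible with 1 library per group.

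Hnf4a had the most peaks of the 9 genes. Its RARα count was 9 under the control diet and 14 under RA, its RARβ count 2 and 8, and its RXRα count 22 and 19. The 74 peaks over the 6 lists were matched or exceeded by 2.0% of all genes, where the median gene had 23. The span of Hnf4a is 66.1 kb, so its window is longer than those of most of the other 8 genes. Per 100 kb of window the RXRα count was 13.2 under the control diet for Hnf4a, 13.6 for Cebpa and 13.8 for Cebpb, so Hnf4a did not lead by density.

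Cebpa had 8 (control) and 9 (RA) peaks for RARα, 6 and 9 for RARβ, and 14 and 16 for RXRα. Its total of 62 was matched or exceeded by 5.58% of genes. The 6 RARβ peaks were the highest count among the 9 genes in that short list, where the other 8 genes had 0 to 3. Cebpb had 11 and 7 for RARα, 3 and 8 for RARβ, and 14 and 10 for RXRα, 53 in all. Onecut1 had 6 and 11, 2 and 6, and 14 and 12 peaks of the same receptors, 51 in all. Prox1 had 4 and 7, 1 and 6, and 13 and 14, a total of 45.

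The 3 Foxa genes ranged widely. Foxa2 had 6 and 8 RARα, 1 and 4 RARβ, and 11 and 12 RXRα peaks, a total of 42. Foxa3 had 7 and 8, 3 and 4, and 8 and 5, a total of 35. Foxa1 had 5 and 3, 0 and 2, and 6 and 3, a total of 19, which is below the median of all genes and was matched or exceeded by 58.1% of them. Hhex had 2 and 6 RARα, 2 and 6 RARβ, and 6 and 7 RXRα peaks, 29 in all. The 9 genes were thus not alike: 8 of them were above the gene median of 23 and Foxa1 was below it.

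**Figure D1:**
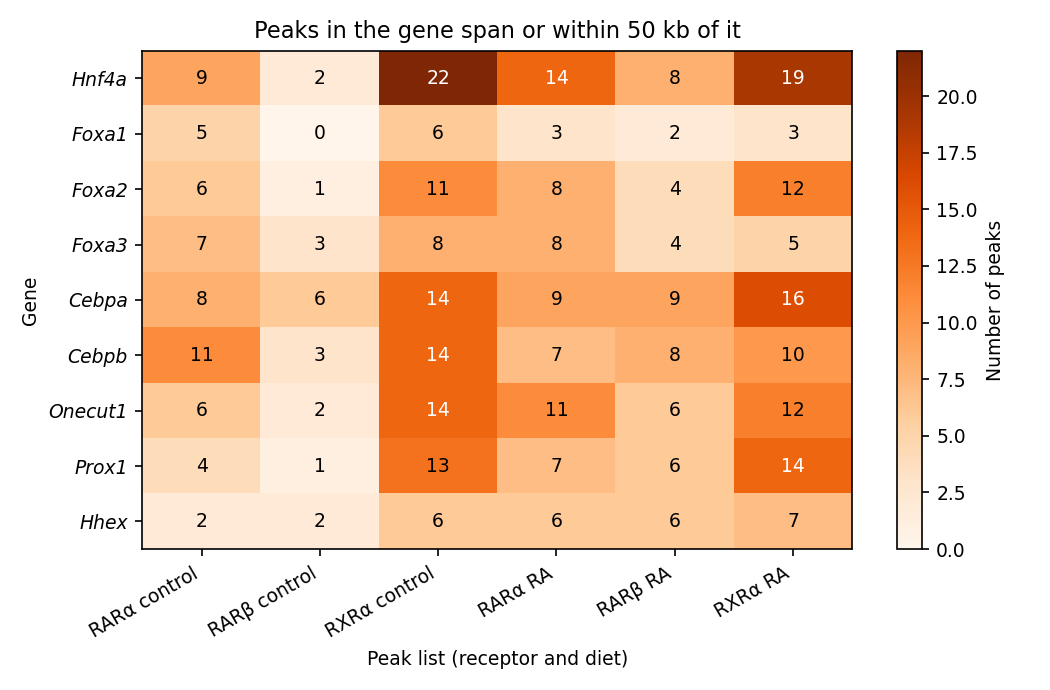
Number of peaks in the gene span or within 50 kb of it for each of the 9 genes (rows) in each of the 6 peak lists (columns); darker cells hold more peaks, and each cell is 1 library. The RXRα control column reaches 22 at Hnf4a, and the RARβ control column runs from 0 at Foxa1 to 6 at Cebpa.

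The windows hold other genes too. Of the 410 peaks, 267 had a start of one of the 9 genes as the nearest protein-coding start, and 143 lay nearer to another gene. At Hnf4a this was so for 44 of 74 peaks (nearer to Fitm2, R3hdml or Ttpal), at Foxa3 for 27 of 35 (Irf2bp1, Mypop, Rsph6a or Sympk), at Onecut1 for 27 of 51 (Fam214a), at Cebpa for 22 of 62 (Cebpg or Slc7a10) and at Cebpb for 21 of 53 (Tmem189 or Ube2v1). At Foxa2, Prox1 and Hhex it was so for none of the 42, 45 and 29 peaks, and at Foxa1 for 2 of 19 (Ttc6). Nearness does not show which gene a site serves.

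Relative to the gene, 78 of the 410 peaks lay in the gene span, 129 upstream of it and 203 downstream. Of the 410, 44 lay within 1 kb of an annotated start of the gene. Within 1 kb of any protein-coding start lay 20.7% (RARα), 35.0% (RARβ) and 11.1% (RXRα) of control peaks around the 9 genes. The whole lists had 28.4%, 46.9% and 15.4%. Under RA the shares were 19.2%, 18.9% and 9.18%, against 23.6%, 29.4% and 16.3%. Offsets below are from the peak midpoint to the nearest annotated start of the gene, negative upstream, and coordinates are those of mm10 (GRCm38). The score of a peak is the caller's value, derived from its p-value in its own library, and cannot be compared between libraries. It is therefore given with its rank, as the top percent of its list, in which 0 is the highest-scoring peak.

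Every one of the 9 genes had a peak within 1 kb of a start in at least 1 list. Under the control diet this was so for 5 of the 9 genes with RARα, 5 with RARβ and 7 with RXRα, where 49.1%, 35.2% and 42.5% of all genes had such a peak. Under RA it was so for 7, 6 and 6 of the 9, against 49.1%, 42.9% and 44.4%. Only Foxa2 and Foxa3 had such a peak in all 6 lists. The shares of all genes with such a peak in at least 1 list or in all 6 are not given here, so these counts have no background. Hnf4a, Foxa2 and Prox1 also have more than 1 annotated start, and a peak at any of them was counted.

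Foxa3 had the highest-ranked peak at a start. Its RARα score there was 572 under the control diet (top 1.98% of the list) and 798 under RA (top 0.474%), centred 357 and 55 bp upstream of the start. Within 1 kb of the same start RARβ scored 61.1 and 136 and RXRα 146 and 159 (top 48.7% and 46.2%). RARα thus ranked far above RXRα there in both diets. Of the 35 peaks around Foxa3, 13 also lay within 1 kb of the start of another protein-coding gene. Every Foxa3 peak named here was among them, as each lay within 1 kb of the start of Sympk. The RARα peaks were 481 bp (control) and 783 bp (RA) from the Sympk start and nearer to that of Foxa3. The RARβ peaks were nearer to Sympk, at 180 and 342 bp, and the control one did not cover the Foxa3 start. Which of these genes the peaks serve was not tested.

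At Hhex the RARα lists of the 2 diets differed at the start. No RARα peak was called within 1 kb of its start under the control diet, and under RA a peak scored 791 (rank 214 of 44296, top 0.483%), 240 bp upstream of the start at chr19:37433813-37435388. RARβ scored 112 and 98.2 there and RXRα 105 and 239. The start of Onecut1 gave a similar picture. RARα had no peak within 1 kb under the control diet and a score of 434 under RA (top 5.57%), 68 bp upstream at chr9:74861603-74862103. RARβ had a peak of 61.7 under the control diet and none under RA, and RXRα scored 60.6 and 65.1 (top 90.0% and 86.7%), close to the list floor of 50. An absent peak means only that the region did not reach the caller's threshold in that library.

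Hnf4a has 2 annotated starts. The downstream one, known as the P1 promoter and used in adult hepatocytes, had peaks in 5 of 6 lists. RARα scored 252 and 381 there (top 18.5% and 8.34%), RXRα 219 and 281 (top 33.1% and 25.4%), and RARβ had none under the control diet and 75.3 under RA. At the upstream start, known as P2 and used in other tissues, peaks within 1 kb were called only in the RXRα lists, with scores of 159 and 66.5. The starts lie at positions 163506857 and 163547155 of chromosome 2.

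At Foxa2 the outermost start had a peak in all 6 lists, led by RXRα at 262 and 362 (top 27.0% and 17.9%), with RARα at 65.5 and 147. Its best RARα peak under RA was 5.30 kb from a start, with a score of 476 (top 4.11%). Foxa1 had RARα peaks of 83.3 and 116 and an RXRα control peak of 93.5 within 1 kb, all ranked below the median of their lists.

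The start of Cebpa was covered by a peak in all 6 lists, but the peaks were broad and their midpoints lay within 1 kb in 4. The RARα control peak there was 5868 bp wide, and the RXRα control peak, of 3776 bp and score 498 (top 9.54%), was centred 1499 bp upstream. At Cebpb a peak covered the start in 5 lists. RXRα scored 522 and 537 (top 8.67% and 8.89%), centred 512 and 1057 bp upstream, and RARβ under RA scored 134. The RARα peaks there were 6151 and 6658 bp wide. At Prox1 the only peak within 1 kb was that of RARα under the control diet, with a score of 109 (top 51.5%).

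**Figure D2:**
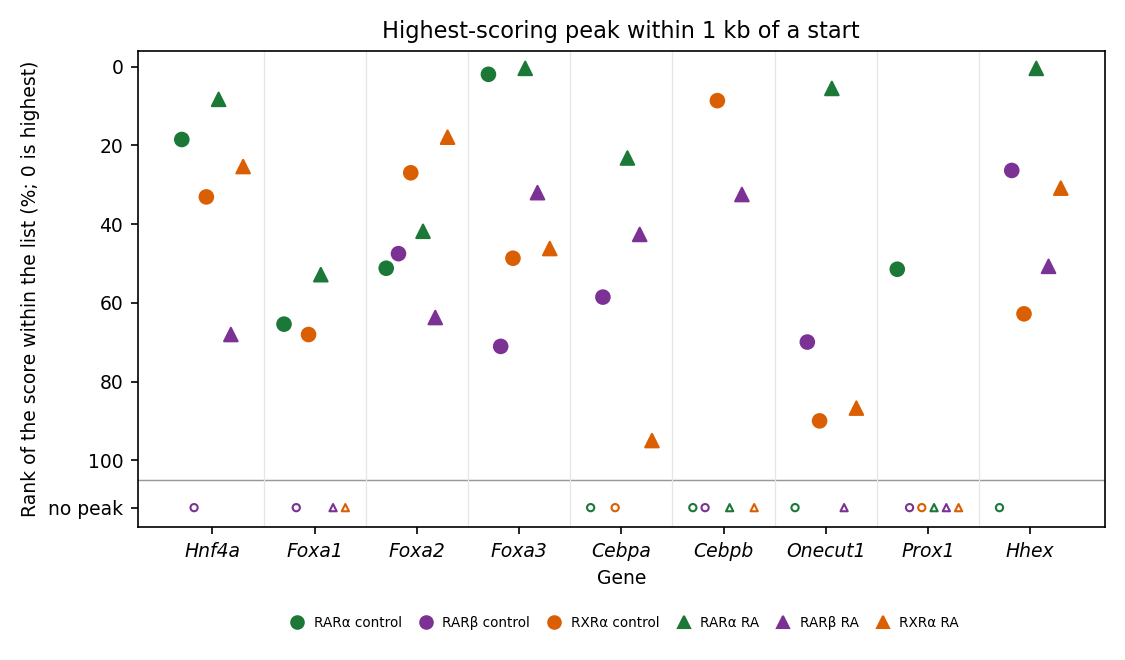
Rank of the highest-scoring peak within 1 kb of a start, as a percent of its own list (0 is the highest score), for each gene and list; circles are control and triangles RA libraries, and open symbols in the lowest band mark no such peak. The RARα triangles of Foxa3 (top 0.474%) and Hhex (top 0.483%) are the highest points.

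The sequences upstream of the starts with the highest-ranked peaks are shown so that their content can be read beside the peaks. They are the 250 bases before the start, 5′ to 3′ on the strand of the gene, from RefSeq on GRCm38.p6, in lower case, and capitals mark a half-site. They are Foxa3 and Hhex, with RARα in the top 0.5% of its list under RA, Onecut1 and the P1 start of Hnf4a, with RARα in the top 10%, and Cebpb, with the highest-ranked RXRα peak within 1 kb of a start.
Foxa3, chr7:19023540-19023789, minus strand: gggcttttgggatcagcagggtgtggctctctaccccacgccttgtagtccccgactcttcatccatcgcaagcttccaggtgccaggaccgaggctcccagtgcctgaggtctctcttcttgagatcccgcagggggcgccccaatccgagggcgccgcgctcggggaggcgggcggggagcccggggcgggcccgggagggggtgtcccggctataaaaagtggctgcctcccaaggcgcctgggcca
Hhex, chr19:37434591-37434840, plus strand: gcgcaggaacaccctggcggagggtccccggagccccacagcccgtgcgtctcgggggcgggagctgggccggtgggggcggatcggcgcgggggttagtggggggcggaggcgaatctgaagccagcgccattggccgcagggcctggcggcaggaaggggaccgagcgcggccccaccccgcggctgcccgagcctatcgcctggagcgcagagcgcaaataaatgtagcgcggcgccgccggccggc
Onecut1, chr9:74861671-74861920, plus strand: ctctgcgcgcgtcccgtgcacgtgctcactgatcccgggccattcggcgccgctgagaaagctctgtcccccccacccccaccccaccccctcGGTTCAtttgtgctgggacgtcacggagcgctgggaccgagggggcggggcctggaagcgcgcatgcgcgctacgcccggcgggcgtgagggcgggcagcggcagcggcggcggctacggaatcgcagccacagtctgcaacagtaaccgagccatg
Hnf4a P1, chr2:163546905-163547154, plus strand: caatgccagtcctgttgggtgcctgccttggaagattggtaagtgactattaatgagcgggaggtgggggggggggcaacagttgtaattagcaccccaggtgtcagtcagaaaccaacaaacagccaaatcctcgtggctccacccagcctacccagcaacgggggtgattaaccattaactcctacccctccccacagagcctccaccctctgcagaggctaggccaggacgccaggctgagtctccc
Cebpb, chr2:167688665-167688914, plus strand: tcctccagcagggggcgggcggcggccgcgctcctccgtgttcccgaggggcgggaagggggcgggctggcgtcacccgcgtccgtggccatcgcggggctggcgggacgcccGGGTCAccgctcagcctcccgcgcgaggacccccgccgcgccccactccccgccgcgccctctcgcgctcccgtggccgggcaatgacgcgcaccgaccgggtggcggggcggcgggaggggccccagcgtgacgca
The half-sites searched for were AGGTCA, its variant with another first base GGGTCA, the variant with another inner base AGTTCA, and the form with both changes GGTTCA, each on both strands of the 250 bases before each start. A half-site was found in 3 of the 13 promoters of the 9 genes, at Cebpb, Onecut1 and Foxa1, against 38.6% of 32851 mouse promoters of the same length. None of the 13 held a direct repeat of half-sites with spacing of the DR1, DR2 or DR5 type, which 0.164%, 0.174% and 0.0883% of all promoters held. The Foxa3, Hhex and Hnf4a P1 sequences therefore hold none of these letters, and the half-site of Onecut1 lies 157 bases and that of Cebpb 137 bases from the start. The median GC content of the 13 promoters was 64.8%, against 52.4% over all promoters. No match says only that these letters are not in this window.

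The regions with the highest RXRα ranks are described next. When the overlapping peaks of the 6 lists were merged into regions, 10 of the regions around the 9 genes were in the top 5% of an RXRα list, at 6 genes. All 10 were called by RXRα in both diets and by RARβ under RA, 9 by RARα under RA, and 7 of the 10 lay more than 10 kb from a start of the gene. Of all RXRα peaks around the 9 genes, 27.8% (control) and 25.5% (RA) lay within 10 kb of a start of the gene. Measured to any protein-coding start, 54.6% (control) and 62.2% (RA) lay beyond 10 kb, against 64.3% and 63.8% of the whole lists. By distance from the gene's own starts, the 10 regions were thus much like RXRα peaks here in general. These regions were picked by their RXRα rank, so this describes them and is no test. The same counts over all such regions of the genome are not given here. The calls by other lists can therefore not be read as particular to these genes.

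The highest-ranked was 68.1 kb downstream of the Onecut1 start, at chr9:74929340-74930699, nearer to the start of Fam214a (22.9 kb) than to that of Onecut1. RXRα scored 848 under the control diet (top 2.31%) and 1478 under RA (top 0.263%, rank 157). RARβ scored 57.8 and 335 (top 77.8% and 3.57%), and RARα 80.7 and 294 (top 67.2% and 15.6%). All 3 receptors therefore ranked higher in their RA list than in their control list at this site.

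Prox1 had a pair of such sites. At 33.9 kb upstream, chr1:190204128-190205250, RXRα scored 980 and 1304 (top 1.41% and 0.517%), RARα 65.4 and 114, and RARβ had no peak under the control diet and 158 under RA. At 62.6 kb downstream, chr1:190105654-190108106, all 6 lists had a peak, with RXRα at 910 and 1194 (top 1.85% and 0.793%) and RARα at 106 and 244. Both lie nearest to a Prox1 start, and Prox1 had almost no peaks at the starts themselves.

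At Cebpa the highest-ranked site was 48.6 kb downstream, chr7:35167001-35168794, 18.5 kb from the start of Slc7a10. RXRα scored 1066 under the control diet (top 1.00%) and 633 under RA (top 6.11%), so its rank was lower under RA, while RARβ went from 57.3 (top 79.0%) to 449 (top 1.65%). A second region at 50.1 kb and others at 24.8 and 30.7 kb downstream were also called, and 5 of the 14 Cebpa regions were called in all 6 lists. No other of the 9 genes had more than 2 such regions. At 30.7 kb, chr7:35149410-35150650, RXRα scored 811 and 451 (top 2.69% and 12.6%), again with the lower rank under RA.

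Around Hnf4a the highest RXRα ranks were at 33.4 kb downstream of the P1 start, chr2:163579927-163581097, with scores of 776 and 894 (top 3.10% and 2.32%), where RARα scored 65.4 and 67.7. A region 6.5 kb upstream of P1, inside the gene, chr2:163538971-163542332, was called in all 6 lists. RARα scored 370 and 502 there (top 8.25% and 3.37%), RARβ 87.9 and 289, and RXRα 507 and 711 (top 9.20% and 4.46%). A further region called in all 6 lists, 34.6 kb upstream of the outermost Hnf4a start, lay 333 bp from the start of Fitm2, a gene of lipid droplet formation. Its ranks were the top 14% and 10.1% for RARα, 11.7% and 3.95% for RARβ, and 14.5% and 15.2% for RXRα. RARβ ranked higher there than at the region inside Hnf4a in both diets, and RARα and RXRα ranked lower.

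Cebpb had RXRα scores of 597 and 851 (top 6.36% and 2.72%) at 25.5 kb downstream, chr2:167713844-167714945, with RARβ at 175 under RA and no peak under the control diet. Hhex had RXRα scores of 695 and 767 (top 4.25% and 3.65%) at 7.15 kb from its start, just past the end of the gene, at chr19:37440528-37443458. The Foxa genes had no region in the top 5% of an RXRα list.

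**Figure D3:**
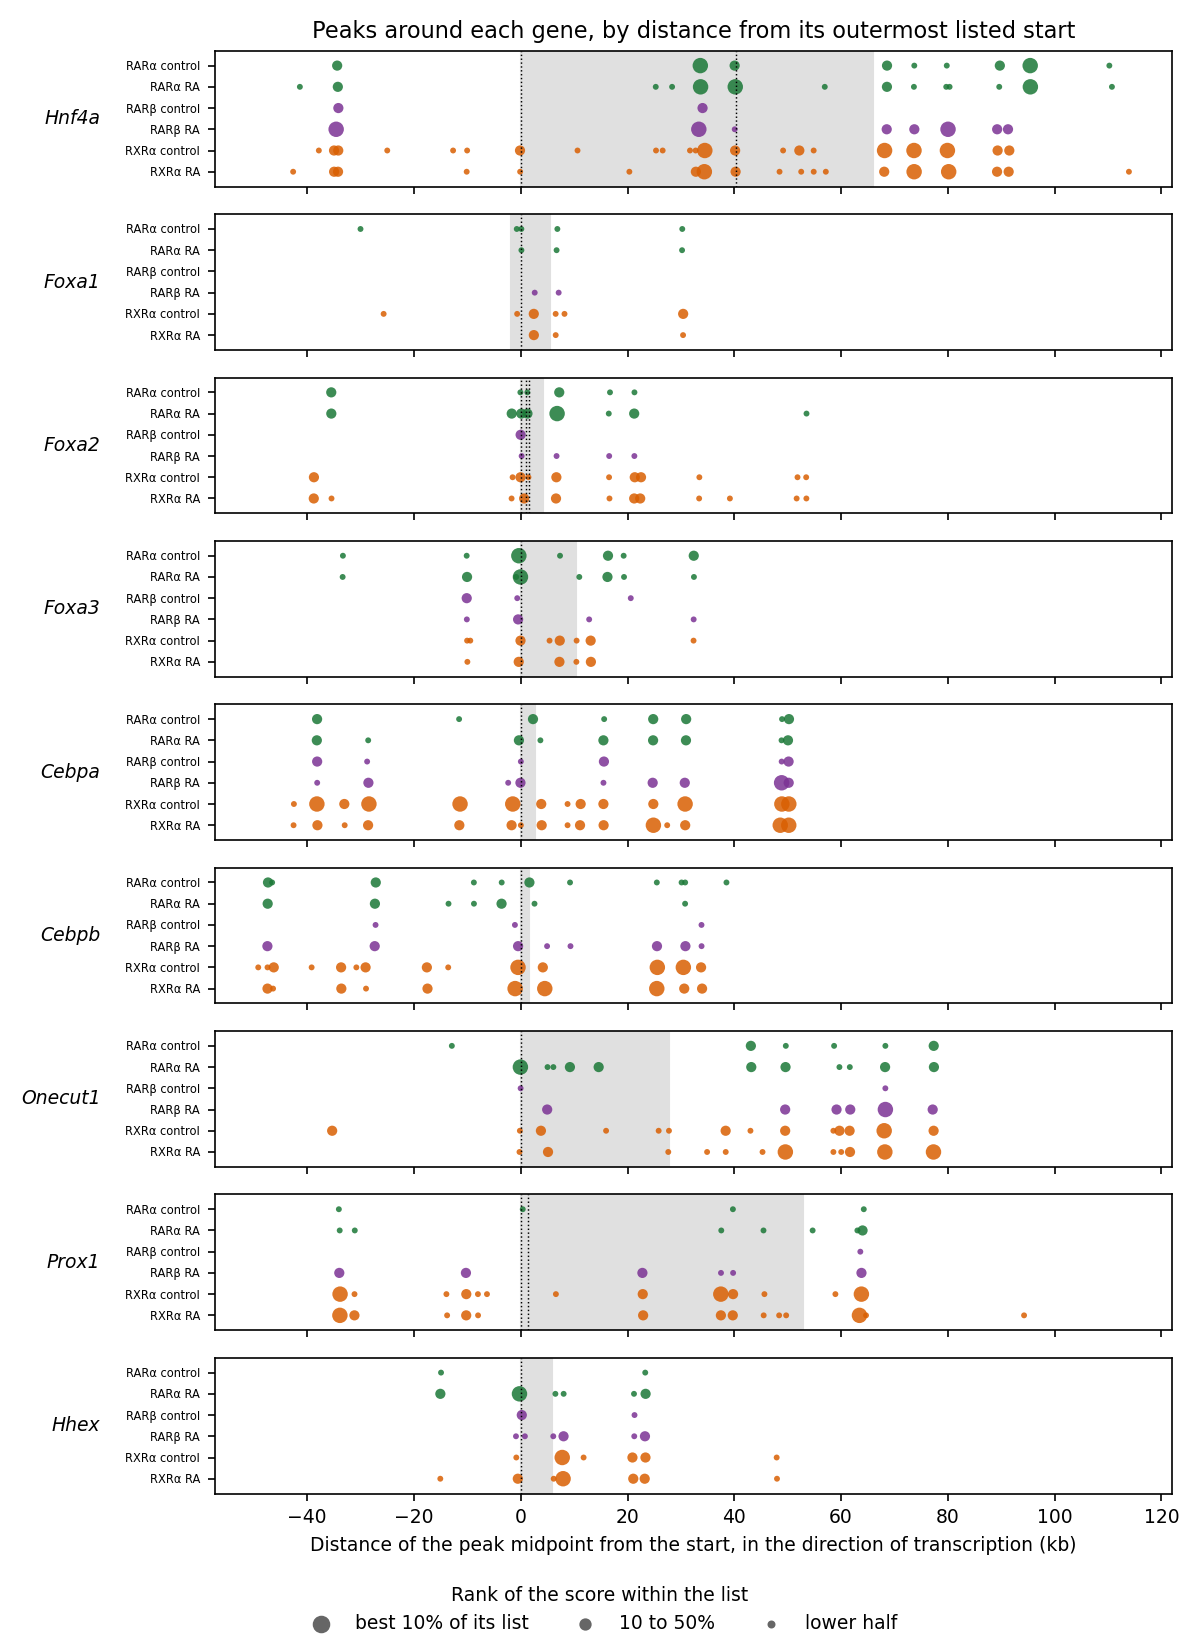
Position of each peak midpoint relative to the outermost listed start of each gene (x axis, kb in the direction of transcription), with 1 lane per list and larger points for higher ranks within the list; grey bands are gene spans and dotted lines annotated starts. Large RXRα points lie at distal sites of Onecut1, Prox1, Cebpa, Hnf4a and Cebpb, and the large RARα points at a start are those of Foxa3, Hhex, Onecut1 and Hnf4a.

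The difference between starts and distal sites can be put beside the whole lists. Among RARα peaks under RA around the 9 genes, those within 1 kb of any protein-coding start had a median rank of the top 27.9% (n = 14) and those beyond 10 kb the top 54.8% (n = 39). Over the whole list the medians were the top 24.7% and 57.1%, so the same order held for RARα peaks in general. For RARα under the control diet the medians around the 9 genes were the top 43.7% (n = 12) and 68.9% (n = 32), against 22.1% and 60.001% over the list, so the peaks at starts ranked lower than those of the list. For RARβ under RA the order was the opposite of that of its list, with the top 46.7% (n = 10) at starts and 37.0% (n = 28) beyond 10 kb, against 32.7% and 56.9%. For RARβ under the control diet the medians were the top 58.5% (n = 7) and 64.9% (n = 9), against 32.9% and 65.1%. For RXRα under the control diet the medians around the 9 genes were the top 46.9% (n = 12) and 38.6% (n = 59), against 52.0% and 49.0% over the list. For RXRα under RA they were the top 30.9% (n = 9) and 48.0% (n = 61), against 49.1% and 49.8% over the list. The RXRα peaks at starts under RA thus ranked higher than those of the list. A higher rank of RXRα at distal sites was not seen in both diets.

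The next comparison was between diets. Over the 9 genes, RARα had 58 peaks under the control diet and 73 under RA, RARβ 20 and 53, and RXRα 108 and 98. The RA list was itself longer or shorter as a whole, so each ratio is set beside that of the list. The ratio was 1.26 for RARα against 1.25 for the list, 2.65 for RARβ against 1.97, and 0.907 for RXRα against 0.975. For RARα and RXRα the count around these genes therefore moved about as the list did. RARβ counts were higher under RA at all 9 genes, RARα counts at 7 and lower at 2 (Foxa1 and Cebpb), and RXRα counts higher at 4 and lower at 5. When every list was limited to its 14968 highest-scoring peaks, the ratios were 1.11, 1.60 and 1.00. Above a score minimum of 100, they were 1.67, 10.3 and 0.931, against 1.35, 3.06 and 0.991 for the lists, and that of RARβ rests on 3 peaks under the control diet. The read totals behind the lists are not known, so the part of sequencing depth in these differences was not tested.

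Some peaks were called in only one diet. Of the RARβ peaks under RA around the 9 genes, 35 of 53 (66%) did not overlap any RARβ control peak, where 61.1% of the whole list had none. For RARα under RA it was 25 of 73 (34.2%) against 30.9%, and for RXRα under RA 14 of 98 (14.3%) against 19.3%. In the control lists it was 13 of 58 for RARα (22.4% against 15.4%), 2 of 20 for RARβ (10% against 22.2%) and 25 of 108 for RXRα (23.1% against 20.7%). The share of RARβ control peaks was below that of its list and that of RARα control peaks above it, on 2 and 13 peaks, and the other 4 were closer to their lists. None of these differences was tested.

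The highest-ranked RA-only peaks of RARα were those at the starts of Hhex and Onecut1 given above, and one 9.21 kb inside Onecut1 (score 240, top 22.2%). Those of RARβ were 39.7 and 51 kb downstream of the P1 start of Hnf4a, toward Ttpal (scores 271 and 223, top 6.42% and 11%), and 24.7 kb downstream of Cebpa (218, top 11.5%). Those of RXRα scored 125 or less, at 34.9 and 45.3 kb from the Onecut1 start and 6.17 kb from that of Hhex. The Hhex peak lay inside the merged region chr19:37440528-37443458, which RXRα called in both diets, so the region was not particular to RA. Among the control-only peaks, the highest of RARα was at the Prox1 start (109, top 51.5%), followed by peaks 12.9 kb upstream of Onecut1 and at the start of Foxa1. The Foxa1 peak (chr12:57546460-57547258) adjoined another RARα control peak, chr12:57545553-57546451, which did overlap a RARα peak under RA. The start of Foxa1 thus had RARα peaks in both diets. The control-only peaks of RARβ were 2, at the Onecut1 start (61.7) and near Irf2bp1 in the window of Foxa3. Those of RXRα were 35.3 kb upstream of Onecut1 (141, top 49.9%), 57.6 kb downstream of a Prox1 start and 30.8 kb upstream of Cebpb. The highest-ranked control-only peak was thus below the highest-ranked RA-only peak for RARα and RARβ and above it for RXRα. In every list the median rank of peaks without overlap was lower than that of peaks with one.

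The sites that RARβ had under RA and not under the control diet were for the most part called for another receptor in its control list. Of 30 such regions around the 9 genes, 29 (96.7%) held an RXRα control peak and 22 (73.3%) a RARα control peak, and 0 held neither. Over all 17343 such regions the shares were 86.7% and 46.4%, and 1307 held neither. The differences were not tested.

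Sharing was measured as an overlap of at least 25% of the width of each peak, and intervals are exact 95% binomial intervals, which cover counting error only. Of the RARα control peaks around the 9 genes, 75.9% (62.8 to 86.1, n = 58) were shared with RARα under RA, against 84.2% of the list. For RARβ control peaks the share in the RA list was 90.0% (68.3 to 98.8, n = 20) against 75.8%, and for RXRα peaks under RA the share in the control list was 84.7% (76.0 to 91.2, n = 98) against 80.3%. All 3 intervals include the share of the list. With an overlap of at least 50% that of RARα did not, at 60.3% (46.6 to 73.0) against 76.9%.

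Between receptors, RARβ control peaks were shared with RARα for 50% (27.2 to 72.8, n = 20), where the list had 74.2%, and with RXRα for 70.0% (45.7 to 88.1) against 77.8%. RARα control peaks were shared with RXRα for 70.7% (57.3 to 81.9, n = 58) against 61.1%. Under RA, RARβ peaks were shared with RARα for 79.2% (65.9 to 89.2, n = 53) against 72.1% and with RXRα for 94.3% (84.3 to 98.8) against 89.9%, and RARα peaks with RXRα for 71.2% (59.4 to 81.2, n = 73) against 61.7%. Of these, only the share of RARβ control peaks with RARα had an interval that does not include the share of the list. That departure depended on the overlap required: with any overlap the share was 70% (45.7 to 88.1) against 76.4%, and with an overlap of at least 50% it was 40% (19.1 to 63.9) against 56.9%. With lists of equal length the departure remained, at 25% (8.66 to 49.1) against 50.96%. At a score of at least 100 it was 33.3% (0.84 to 90.6, n = 3) against 86.98%, an interval that includes the list. Counted from the RARα control peaks, 17.2% (8.59 to 29.4, n = 58) were shared with RARβ, against 30.96%. That interval does not include the share of the list either.

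When merged, the peaks around the 9 genes formed 133 regions, of 87802 in the genome. A region was called in all 6 lists in 13 cases (9.77%, against 9.75% of all regions), in 5 lists in 21 (15.8% against 9.46%) and in 1 list in 40 (30.1% against 29.4%). By receptor, 50 regions (37.6% against 36.3%) were called for RXRα alone, 42 (31.6% against 25.8%) for all 3 receptors and 17 (12.8% against 16.4%) for RARα alone. Every region of Cebpa (14), Foxa2 (12) and Hhex (7) was called for RXRα in at least 1 diet. A RAR without RXRα was called at 5 of 18 regions of Cebpb and 4 each at Hnf4a (of 27), Foxa3 (of 12) and Onecut1 (of 19). At Prox1 it was so for 2 of 18 regions and at Foxa1 for 1 of 6. Beside RARα alone, the classes without RXRα were RARβ alone (0.752% against 1.985% of all regions) and RARα with RARβ (1.504% against 1.722%). Each class without RXRα thus had a lower share here than over all regions, and this was not tested.

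**Figure D4:**
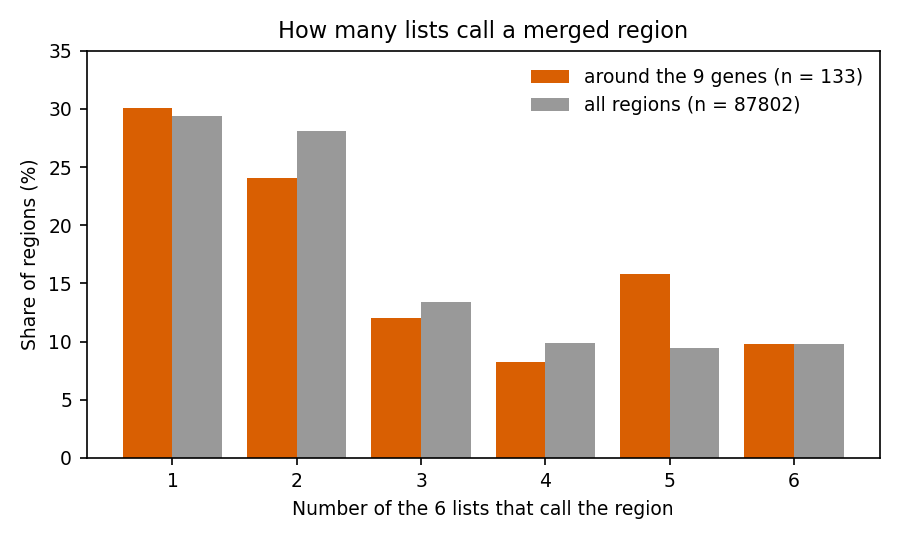
Share of merged regions (y axis, %) called in 1 to 6 of the 6 lists (x axis), for the 133 regions around the 9 genes and all 87802 regions. The bars for 6 lists are almost equal (9.77% and 9.75%), and the largest gap is at 5 lists (15.8% against 9.46%).

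Other groups of transcription factor genes help to place these counts. Summed over the 6 lists, the 9 genes had a median of 45 peaks (19 to 74). The median of 22 other liver factor genes, among them Nr5a2, Ppara and Nfia, was 60.5 (21 to 170), above that of the 9 genes. It was 17 (3 to 50) for 17 factor genes of other liver cell types, such as Erg, Spi1 and Sox9, and 7.5 (0 to 33) for 20 factor genes of lineages outside the liver, such as Myod1 and Pdx1. The counts at the hepatocyte identity genes were thus above the median of all genes but not above those of other liver factors. A longer gene has a longer window, and the counts compared between groups or with all genes were not divided by window length. Among the 20 genes of other lineages, a peak within 1 kb of a start was called for 1 gene with RARα in either diet and for 0 genes in the 4 lists of RARβ and RXRα. The livers were bulk tissue, and which cells gave a peak cannot be told.

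**Figure D5:**
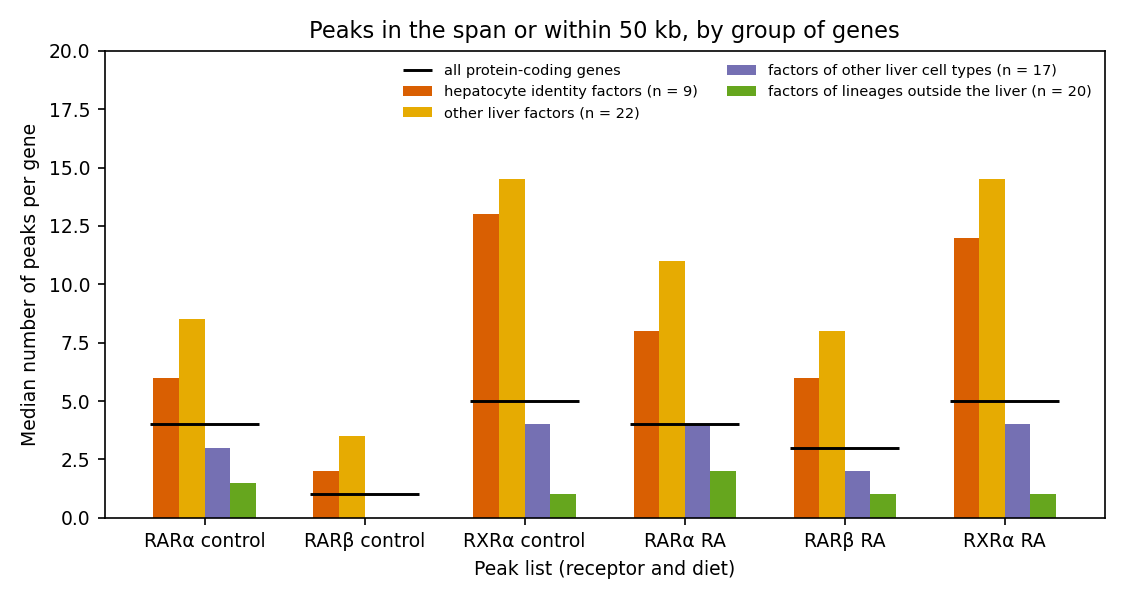
Median number of peaks per gene (y axis) in the span or within 50 kb, by list (x axis), for the 9 hepatocyte identity genes and 3 other groups of transcription factor genes, with a black line for the median of all protein-coding genes. In the RXRα control list the 9 genes have a median of 13, the other liver factors 14.5 and all genes 5.

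By the smallest summed difference in counts over the 6 lists, leaving out genes with an overlapping window, the genes most like Hnf4a were Tnrc6b and Smarca2 (a summed difference of 5 each), those most like Cebpa were Alg14 and Rab4b (1 and 2), and those most like Cebpb were Ensa and Tmc5 (4 and 5). This likeness is one of counts over 6 libraries and says nothing of function.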

How the data were processed

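ChIP-seq peak lists of RARα, RARβ and RXRα in mouse liver, 1 library per receptor and diet, were used as deposited. Per the submitters' processing notes, the authors used Bowtie 0.12.7, MACS 1.4.1 and mm10, with reads of 35 bp. The deposited score of each peak is the caller's value, derived from its p-value, and no list held one below 50. It was not normalized between libraries and was used only as a rank within a list. The 1 input library was not used here, and read totals per list are not given in the sources used here, so the depth is unknown and a count of peaks cannot be corrected for it.

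The build was checked from chromosome Y, where the last peak ended at 90842021, beyond the length of that chromosome in NCBIM37 (15902555), so coordinates are those of GRCm38. Gene spans came from RefSeq on GRCm38.p6. Strands and starts came from RefSeq promoters for 17492 protein-coding genes and strands from an older annotation, by symbol, for 4044; 364 without a strand were left out of 21900. Exons, introns, untranslated regions and the sequence under the peaks were not analysed here.

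Peaks were assigned by midpoint, called shared when the overlap reached 25% of both widths, and merged into regions across the 6 lists. With 1 library per group there was no test; values over all genes or the whole list stand beside those of the 9 genes. Named sites were, for each gene and list, the highest-scoring peak and the one nearest to a start, and the 3 highest-scoring peaks of each list without overlap in the other diet; the regions in the top 5% of an RXRα list were chosen after their values were seen. The genes and lists were chosen with earlier results of these data known. Scripts were tested on simulated peaks. Alternatives were another window, score minimum, list length, overlap and start distance, and leaving out Hnf4a. Python 3.11.15, numpy 2.4.6, pandas 2.3.3 and scipy 1.17.1 were used.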

Additional observations from a re-analysis of the deposited data

Results flagged for a closer look

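The number of peaks around the 9 genes under RA minus that under the control diet was 15 with RARα, 33 with RARβ and -10 with the RXRα antibody. The sign differed between receptors, with RARβ higher under RA at all 9 genes and RXRα lower at 5 of them. The difference between receptors was not tested, since each count comes from 1 library. The whole lists moved in the same directions, with RA to control ratios of 1.25, 1.97 and 0.975.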

How the results depend on the processing

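Of 88 alternative values, 48 stayed near the main one and 40 moved by more than the stated tolerance (1.5 times for a count, the exact interval for a share). Values below are in the order RARα, RARβ, RXRα. A window of 10 kb gave 21, 7 and 50 control peaks, and 34, 23 and 42 RA peaks. A score of at least 100 left 27 RARα and 3 RARβ control peaks and 45 and 31 under RA. Lists of equal length gave 19 RARα and 35 RXRα control peaks and 21, 32 and 35 peaks under RA. Genes with a peak within 1 kb of a start fell to 2 (RARα control), 1 (RXRα control) and 1 (RXRα under RA) at equal length, and to 1 (RARβ control) and 3 (RARβ under RA) at a score of at least 100.

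Shares here stand against those of the whole list at the same setting. With an overlap of at least 50%, the shares between diets were 60.3% against 76.9% (RARα control), 50% against 58.0% (RARβ control) and 74.5% against 74.3% (RXRα under RA). For RARα in RXRα they were 51.7% against 50.8% (control) and 50.7% against 49.2% (RA). For RARβ in RXRα they were 35.0% (15.4 to 59.2) against 59.3% and 81.1% against 81.2%. RARβ in RARα under RA had 60.4% against 62.3%. At a score of at least 100, 33.3% of RARβ control peaks (n = 3) were shared with the other diet, against 85.6%. For RXRα RA peaks the share was 92.5% (83.4 to 97.5) against 80.8%. Under RA, 58.1% of RARβ peaks were shared with RARα, against 68.4%. At equal length, 60% of RARβ control peaks were shared with RARβ under RA, against 56.8%. With RARα the share of RARβ control peaks was 25% (8.66 to 49.1) against 50.96%. For RARα in RXRα the shares were 47.4% (24.4 to 71.1) against 17.998% (control) and 38.1% against 21.9% (RA). RARβ peaks under RA had 37.5% against 45.4% in RARα and 71.9% against 55.7% in RXRα. Of these equal-length shares, those of 25% and 47.4% had intervals that do not include the share of the list. Under alternatives chosen after seeing the data, 1 region was called in all 6 lists at a score of at least 100, and 4 of 57 regions at equal length. The direction of the RARβ difference between diets was the same in all 6 settings of the peak counts. At equal length the RXRα counts were equal. The causes were not tested. No paired analysis was possible because each group holds 1 library and no test was run. Limits are the single libraries, the unknown depth, the low number of RARβ control peaks and neighbouring genes that share the windows.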

Other observations

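The 6 hepatocyte marker genes had a median of 46.5 peaks over the 6 lists (26 to 75), led by Apoa1, an apolipoprotein of HDL, with 75, and Alb (albumin) with 65. In the RARα lists 0 of the 6 had a peak within 1 kb of a start under the control diet and 2 under RA, where RXRα had one at 5 of the 6 in both diets. Among the factor genes of other liver cell types, Spi1, known from macrophages, had 45 peaks. Among other liver factors, Zbtb20 had 170 and Nfia 156, matched or exceeded by 0.0279% and 0.0464% of genes. These counts, too, were not divided by window length.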
